A study of Mus musculus with 183 samples.

Results

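Fgf5, Otx2, Pou3f1, Zic2, Dnmt3a, Dnmt3b and Nes are genes that mark the passage of mouse embryonic stem cells (mESCs) out of the naive ground state. They were taken by name from a table of 53380 genes and make up 7 of them. All 7 had a count in the mock libraries, and all 7 passed the filter on low counts in every comparison. On GRCm38 Fgf5 lies at chr5:98254184-98277030, Otx2 at chr14:48657677-48673819 (minus strand), Pou3f1, with 1 exon, at chr4:124656807-124660655, Zic2 at chr14:122475435-122479852, Dnmt3a at chr12:3806007-3914443, Dnmt3b at chr2:153649450-153687730 and Nes at chr3:87971078-87980451, all on the plus strand but Otx2. Their mRNA levels and half-lives were followed in an actinomycin D time course, and the binding of RNA decay factors to them was read from a second table, which held 4 of the 7.

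The mESCs of the study were grown in serum and LIF. Naive mESCs resemble the inner cell mass. On differentiation they pass through a formative state, like that of the early epiblast, and then a primed state. FGF5 is a secreted ligand of the early epiblast. OTX2, POU3F1 (OCT6) and ZIC2 are transcription factors that act at epiblast enhancers, DNMT3A and DNMT3B place new DNA methylation, and Nestin (Nes) is an intermediate filament protein of neural progenitors. The helicase SKIV2L feeds mRNAs into the cytoplasmic exosome for decay from the 3′ end, XRN1 degrades them from the 5′ end, MTR4 works with the nuclear exosome, and AVEN is a partner of the SKIV2L (Ski) complex.

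The time course held 47 libraries from 2 mESC clones. Clone 5F was Rosa26 Cre-ERT2/- with Skiv2l fl/fl alleles. Clone 7E came from a line carrying Rosa26 Cre-ERT2 together with BirA (BirA-V6 in the labels) and a 3xFLAG-Avi tag on Skiv2l, was Aven-/-, and was Skiv2l fl/fl by the study's cell line list. Each genotype was 1 clone, so AVEN, the tag, BirA and the clone itself cannot be told apart when 7E is set against 5F. Each clone was sampled without 4-hydroxytamoxifen (4OHT, day 0) and after 4 days in 0.1 µM 4OHT, which activates Cre. RNA was taken after 120, 240 or 360 min of actinomycin D, which blocks transcription, or after a mock treatment with DMSO only. Every group had 3 libraries, except clone 5F on day 0 at 120 min, which had 2. The study calls the 3 libraries technical replicates, so p-values measure the spread between wells of 1 clone.

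Total gene counts ran from 24440935 to 34114250 per library. Skiv2l, the floxed gene, gave 147, 147 and 148 CPM (counts scaled to a common library total) in the day 0 mocks of clone 5F and 153, 132 and 144 CPM in those labelled day 4, a log2 difference of -0.01 ± 0.05 (SE, edgeR quasi-likelihood test, adjusted p = 0.914). The gene count also takes in exons outside the floxed stretch, so it checks the labels only in part. In clone 7E Skiv2l stood at 33.5, 36.1 and 31.2 CPM on day 0 and fell to 13.8, 13.1 and 12.3 CPM on day 4. Aven was at 32.1 to 36.1 CPM in the 6 mocks of clone 5F and at 1.30 to 2.99 CPM in the 6 of clone 7E. The core pluripotency factor Pou5f1 (OCT4) stood at 661 to 996 CPM in every mock library. ERCC spike-ins, added in a fixed amount to the lysis buffer, took 0.275% to 0.320% of the counts in 9 of the 12 mocks and 0.640% to 0.659% in the 3 day 4 mocks of clone 7E.

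Levels of the 7 genes spread widely within these cells. Per kilobase of annotated exon, Dnmt3b was the highest in all 4 mock groups and Fgf5 the lowest. In clone 5F on day 0 Dnmt3b gave 90.6 ± 2.70 CPM per kb (SD, n = 3). Dnmt3a (10.5 ± 0.263), Otx2 (9.18 ± 0.0559) and Nes (8.89 ± 0.0425) followed in that order, each mean ± SD of 3 libraries in CPM per kb. Pou3f1 stood at 6.58 ± 0.141, Zic2 at 4.64 ± 0.225 and Fgf5 at 1.09 ± 0.0824 CPM per kb, also over 3 libraries. The ranges of neighbours in this order did not overlap in any of the 4 groups. The order itself differed between them: Otx2 was second in clone 7E on day 0 (15.2 ± 0.454 CPM per kb, n = 3), and Nes was second in the day 4 mocks of both clones (13.2 ± 0.831 and 19.7 ± 0.930 CPM per kb in 5F and 7E, n = 3 each). The exon length of Dnmt3a, 16642 nt, joins all its annotated isoforms, and its level per kb is lower for that. The exon lengths used for Nes and Otx2 were 6416 and 4221 nt. The single transcripts searched below were 9685 nt for Dnmt3a, 6126 nt for Nes and 2592 nt for Otx2. The ranks of these 3 genes depend on the length used. Fgf5 rests on 44 to 90 counts per mock library.

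The first comparison asked how the 7 mRNAs differed after 4 days of 4OHT in clone 5F. Nes was higher, Otx2 and Dnmt3b were slightly lower, and the other 4 did not pass the test. Nes gave 56.7, 57.2 and 57.1 CPM on day 0 and 90.0, 84.3 and 79.4 CPM in the libraries labelled day 4. The groups did not overlap, and the log2 change was 0.61 ± 0.05 (SE), or 1.52-fold (edgeR, adjusted p = 4.26e-08). Otx2 gave 38.7, 39.0 and 38.5 CPM on day 0 against 34.3, 32.9 and 31.3 CPM, a log2 change of -0.20 ± 0.06 (edgeR, adjusted p = 0.0127). Dnmt3b, at 450, 478 and 460 CPM against 397, 398 and 392 CPM, changed by -0.19 ± 0.04 on the log2 scale (edgeR, adjusted p = 0.00237). Neither call held in every run with 1 replicate left out. Without replicate 3 the edgeR adjusted p was 0.163 for Otx2 and 0.0523 for Dnmt3b. Without replicate 1 it was 0.0556 for Otx2. The log2 changes moved little in such runs, from -0.24 to -0.17 for Otx2 and from -0.21 to -0.18 for Dnmt3b.

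Dnmt3a stood at 171, 179 and 171 CPM against 156, 163 and 167 CPM in clone 5F, with a log2 difference of -0.06 ± 0.04 (95% interval -0.15 to 0.02). Pou3f1 stood at 25.8, 25.4 and 24.8 CPM against 24.1, 23.2 and 26.3 CPM, with overlapping groups and a log2 difference of -0.01 ± 0.07 (95% interval -0.14 to 0.12). Zic2 gave 13.4, 14.0 and 12.7 CPM on day 0 against 14.0, 15.0 and 16.6 CPM, and Fgf5 gave 2.97, 2.64 and 2.59 CPM against 2.17, 1.90 and 1.85 CPM. Neither passed, with log2 differences of 0.22 ± 0.08 for Zic2 (edgeR, adjusted p = 0.0527) and -0.43 ± 0.16 for Fgf5 (edgeR, adjusted p = 0.0551). Zic2 passed without replicate 2 (adjusted p = 0.0363), and Fgf5 passed when each library was scaled to its own spike-ins (adjusted p = 0.0398). In all, 1 of the 7 genes was higher and 2 were lower. Over the 16349 genes tested, 12.8% were called higher and 11.6% lower, and the median log2 change of the 7 genes was -0.06.

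In clone 7E, which lacks AVEN, all 7 passed the test on day 4, and they moved in both directions. Nes rose most. It gave 46.3, 48.6 and 47.3 CPM on day 0 and 132, 127 and 120 CPM on day 4, a log2 change of 1.45 ± 0.05, or 2.74-fold (edgeR, adjusted p = 5.29e-16). On the CPM scale the day 4 mocks of clone 7E held the highest Nes level of the 4 groups. Zic2 fell most, from 11.7, 13.5 and 12.8 CPM to 4.34, 4.66 and 4.75 CPM. Its level on day 4 was 0.374 of that on day 0, with a log2 change of -1.42 ± 0.10 (edgeR, adjusted p = 7.01e-11).

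Otx2 fell in clone 7E from 66.2, 62.6 and 63.5 CPM to 38.5, 46.6 and 35.4 CPM, a log2 change of -0.64 ± 0.07 (edgeR, adjusted p = 2.11e-07). Dnmt3a fell from 115, 111 and 114 CPM to 75.3, 75.3 and 84.7 CPM, a log2 change of -0.49 ± 0.05 (edgeR, adjusted p = 1.28e-07). For both genes every day 4 library lay below every day 0 library.

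The remaining 3 changes in clone 7E were smaller. Dnmt3b gave 179, 177 and 189 CPM on day 0 and 202, 198 and 206 CPM on day 4, a log2 change of 0.19 ± 0.05 (edgeR, adjusted p = 0.00187). Pou3f1 gave 9.22, 9.56 and 12.2 CPM against 12.9, 12.3 and 11.6 CPM, with 1 day 0 library inside the day 4 range and a log2 change of 0.29 ± 0.10 (edgeR, adjusted p = 0.0265). Fgf5 gave 2.79, 2.62 and 3.03 CPM against 1.52, 1.75 and 2.60 CPM, a log2 change of -0.47 ± 0.19 (edgeR, adjusted p = 0.049). These calls were lost when replicate 1 was left out, with adjusted p = 0.0567 for Dnmt3b, 0.344 for Pou3f1 and 0.318 for Fgf5. Without replicate 2 the adjusted p was 0.168 for Pou3f1 and 0.138 for Fgf5, and the DESeq2 Wald test gave an adjusted p of 0.102 for Fgf5. So 3 of the 7 genes were called higher and 4 lower, beside 20.7% of 16333 genes called higher and 19.4% lower. The median log2 change of the 7 genes was -0.47.

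These changes are relative to the other genes of the same library. When each library was scaled to its own spike-ins, the median of all genes moved by -1.11 on the log2 scale between day 0 and day 4 of clone 7E. On that scale Nes still rose, by 0.35 ± 0.05 (0.54 ± 0.07 in clone 5F, with 7E at -0.40 against 5F on day 0, so the order of the Nes levels given above holds in CPM only), and Zic2 changed by -2.52 ± 0.11, but Dnmt3b (-0.90 ± 0.05) and Pou3f1 (-0.81 ± 0.11) turned from higher to lower. Relative to the shifted median, the changes were 1.46 for Nes, -1.41 for Zic2, 0.21 for Dnmt3b and 0.30 for Pou3f1. In bulk RNA fewer cells per well and less RNA per cell cannot be told apart. In clone 5F the same scaling moved the median by -0.07.

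**Figure D1:**
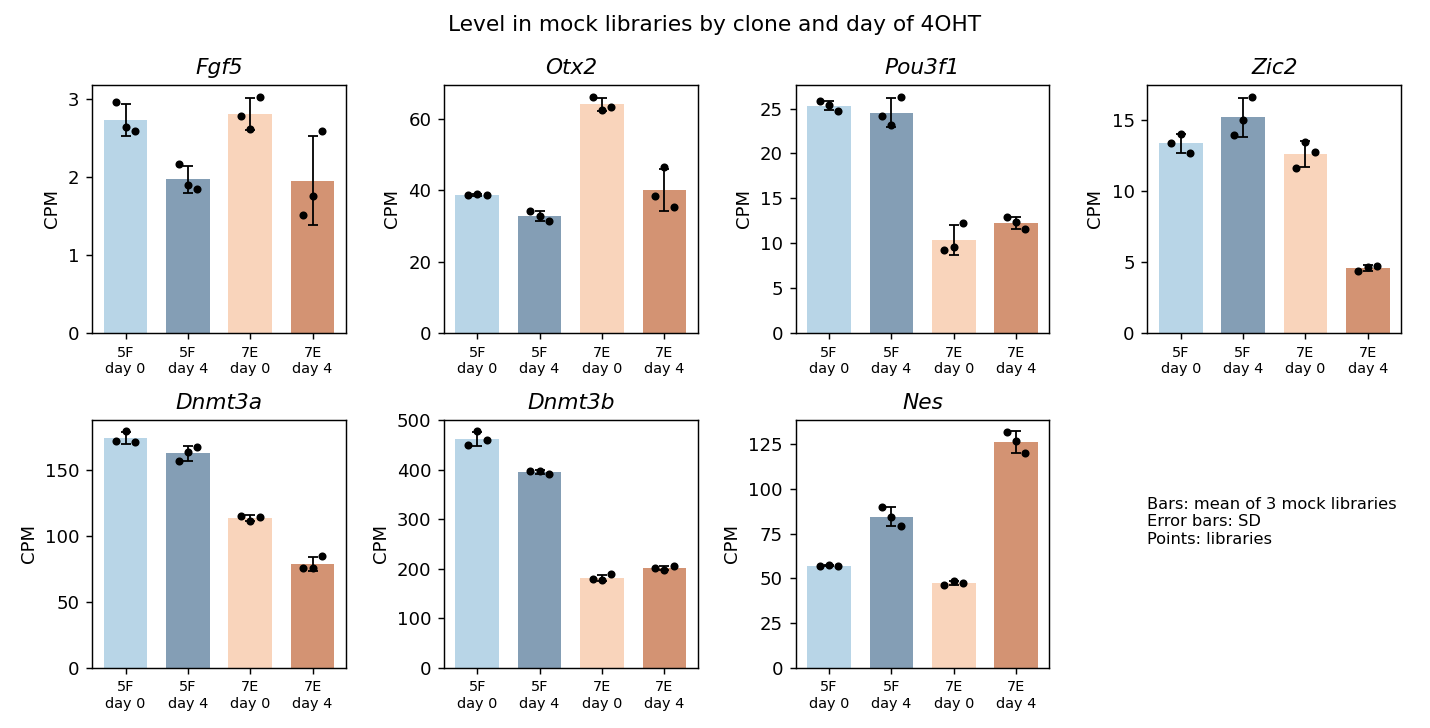
Level of each gene in CPM (vertical axes from 0) in the mock libraries of both clones on day 0 and day 4 of 4OHT. Bars are means of 3 libraries, error bars are SD and points are libraries; Nes rises to 120 to 132 CPM and Zic2 falls to 4.34 to 4.75 CPM in clone 7E on day 4.

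Whether the response differed between the clones was tested as an interaction over the 12 mocks. It differed for 5 of the 7 genes, beside 11.9% of 17209 genes tested. The change of Zic2 was lower in clone 7E by 1.64 ± 0.12 on the log2 scale (edgeR, adjusted p = 3.14e-09), since Zic2 was not lower in 5F. Nes rose further in clone 7E, by 0.85 ± 0.07 (edgeR, adjusted p = 1.67e-08). Otx2 and Dnmt3a differed by -0.43 ± 0.10 and -0.43 ± 0.07 (edgeR, adjusted p = 0.00598 and 0.000138), falling further in 7E. Dnmt3b differed by 0.38 ± 0.06 (edgeR, adjusted p = 5.85e-05), being lower after 4OHT in 5F and higher in 7E. For Pou3f1 (0.30 ± 0.12, adjusted p = 0.124) and Fgf5 (-0.04 ± 0.25, adjusted p = 0.94) no difference passed, and the 95% interval for Fgf5 ran from -0.53 to 0.44. Scaled to each library's own spike-ins the median of this difference was -1.03, and the values for Nes (-0.18 ± 0.08), Dnmt3b (-0.64 ± 0.08) and Pou3f1 (-0.73 ± 0.14) changed sign. On that scale all 7 genes passed, Pou3f1 with an edgeR adjusted p of 1.46e-05 and Fgf5, at -1.07 ± 0.26, with one of 0.000398. Without replicate 1 the adjusted p for Otx2 was 0.223, and without replicate 3 that for Pou3f1 was 0.00656.

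Before any 4OHT the clones already differed. Clone 7E held less Dnmt3b, Pou3f1, Dnmt3a and Nes than clone 5F and more Otx2. Skiv2l mRNA was lower too, at 0.233 of its 5F level, a log2 difference of -2.10 ± 0.05 (edgeR, adjusted p = 1.06e-19). Its part cannot be told apart from that of AVEN, the tag, BirA and the clone. The day 4 changes of the clones thus started from unlike Skiv2l levels. Dnmt3b was at 177 to 189 CPM in 7E against 450 to 478 CPM in 5F, a log2 difference of -1.32 ± 0.04 (edgeR, adjusted p = 2.58e-17). Pou3f1 was at 9.22 to 12.2 CPM against 24.8 to 25.8 CPM, a log2 difference of -1.26 ± 0.08 (edgeR, adjusted p = 2.14e-11). Both thus stood at about the same fraction of their 5F level, 0.401 and 0.417. Dnmt3a was lower by a log2 difference of -0.59 ± 0.04 (edgeR, adjusted p = 3.52e-11) and Nes by -0.23 ± 0.05 (edgeR, adjusted p = 0.000388).

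Otx2, at 62.6 to 66.2 CPM in 7E and 38.5 to 39.0 CPM in 5F, was higher by 0.76 ± 0.05 (edgeR, adjusted p = 1.33e-11). Zic2 differed by -0.05 ± 0.08 (95% interval -0.21 to 0.10) and Fgf5 by 0.08 ± 0.15 (95% interval -0.22 to 0.37), and neither passed. So 1 of the 7 genes was higher and 4 were lower, beside 20.0% of 16299 genes called higher and 19.7% lower. None of these 5 calls was lost in any alternative run. The comparisons share libraries: the day 0 mocks of each clone serve both here and in that clone's day 4 comparison.

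**Figure D2:**
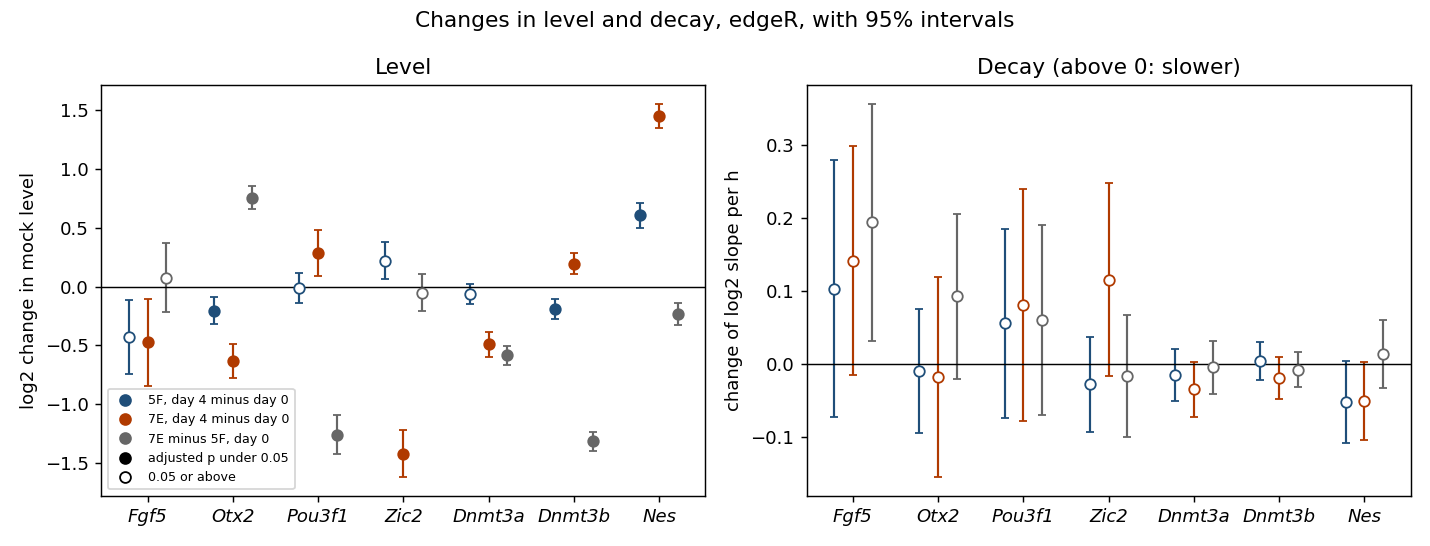
Left, log2 change in mock level; right, change in the log2 slope per hour of actinomycin D, where values above 0 mean slower decay. Points are edgeR estimates with 95% intervals for 3 comparisons, filled where the adjusted p is under 0.05; filled points are found only in the left panel, with Nes (1.45) highest and Zic2 (-1.42) lowest.

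Markers of other cell types moved with the same comparisons. Over all genes, 20.0% were called higher and 19.7% lower in 7E than in 5F on day 0. On day 4 these shares were 20.7% and 19.4% in 7E and 12.8% and 11.6% in 5F. Of 9 endoderm markers 8 were tested, and all 8 were lower in clone 7E than in 5F on day 0; their summed level was 199 to 204 CPM in the 5F mocks and 22.2 to 24.3 CPM in those of 7E, where Ttr was at 0. In the 5F libraries labelled day 4 the sum was 145 to 149 CPM, with 4 of 8 lower and 1 higher. Of 8 trophoblast markers 7 were tested and all 7 rose in clone 7E on day 4, their sum going from 153 to 155 CPM up to 310 to 346 CPM; in 5F 3 of 7 rose, and the sum went from 179 to 193 CPM to 197 to 230 CPM. Of 11 neural markers 7 were tested, with 2 higher and 2 lower in 7E on day 4. Map2 (0.80) and Neurod1 (0.49) rose and Sox1 (-2.05) and Pax6 (-0.32) fell on the log2 scale, and the sum was 144 to 149 CPM there against 154 to 164 CPM on day 0. Markers of 2-cell-like cells summed to 1.07 to 2.97 CPM on day 0 and 5.61 to 9.53 CPM on day 4 over both clones. Fibroblast markers summed to at most 10.8 CPM and mesoderm markers to at most 7.58 CPM. The part of these cells in the changes of the 7 genes was not tested. All these sums and changes are relative to the other genes of a library. With spike-in scaling the median of all genes in 7E moved by -1.11 between the days, and 259 of 16333 genes were called higher. Marker rises in 7E smaller than that shift may therefore not hold on that scale.

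Genes of the naive state were counted in the same way, with Tet2 both here and among the DNA methylation genes below. Of 16 naive genes, 10 were higher and 1 was lower in clone 7E than in 5F on day 0, beside 20.0% and 19.7% of all genes. Their median log2 difference was 0.23 beside -0.01 over all genes. On day 4 of 4OHT 12 of the 16 fell and 2 rose in clone 7E (median -0.30), while in 5F 5 rose and 4 fell (median -0.01). Over all genes 19.4% fell and 20.7% rose in 7E, and 12.8% rose and 11.6% fell in 5F. Naive genes summed to 2736 to 2822 CPM in 5F and 3183 to 3273 CPM in 7E on day 0, and to 2663 to 2691 CPM in 7E on day 4. The core genes Pou5f1, Sox2 and Sall4 summed to 1667 to 1991 CPM over the 12 mocks.

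Another 24 formative and primed genes, all tested, moved in both directions. On day 4 of 4OHT 5 rose and 8 fell in clone 7E (median log2 change -0.02), beside 20.7% and 19.4% of all genes, and 5 rose and 5 fell in clone 5F (median 0.01), beside 12.8% and 11.6%. The count that rose in 7E is near the share over all genes. In 7E Zic5, the zinc finger gene beside Zic2, changed by -1.19 on the log2 scale (edgeR, adjusted p = 6.17e-10) and the transcription factor gene Tcf15 by -0.99 (edgeR, adjusted p = 5.79e-12). Dnmt3l, the cofactor of DNMT3A and DNMT3B, changed by 0.98 (edgeR, adjusted p = 2.42e-14) and the tight junction gene Cldn6 by 0.81 (edgeR, adjusted p = 8.44e-11), although both turned negative on the spike-in scale. In 5F Tcf15 (-0.31) and the transcription factor gene Sall2 (-0.27) were lower and Cdh2, the N-cadherin gene (0.29), and Sox11, another transcription factor gene (0.23), were higher, with edgeR adjusted p between 0.000442 and 0.045.

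On day 0, 11 of the 24 were lower in clone 7E and 5 higher (median -0.13), beside 19.7% and 20.0% of all genes. The count that was higher is near the share over all genes. The largest differences were in Enpp2, which encodes autotaxin (-2.26), the kinase gene Pim2 (-1.98), the Wnt effector gene Lef1 (-1.95) and the carbonic anhydrase gene Car4 (-1.45), each a log2 difference with an edgeR adjusted p of 7.94e-11 or less.

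Of the 9 DNA methylation genes, 2 rose and 5 fell in clone 7E on day 4 (median -0.27), beside 20.7% and 19.4% of all genes. The count that rose is near the share over all genes. Beside Dnmt3l, the imprint factor gene Zfp57 (-0.78) and the demethylation genes Tet2 (-0.78) and Tet1 (-0.36) had the largest changes (edgeR, adjusted p of 2.03e-06 or less). In clone 5F 3 rose and 2 fell (median 0.13), beside 12.8% and 11.6% of all genes, with the maintenance enzyme gene Dnmt1 at 0.25 and Zfp57 at -0.25. On day 0 none was higher and 4 were lower in 7E (median -0.06), beside 20.0% and 19.7% of all genes. Dnmt3l led the lower ones at -1.35 (edgeR, adjusted p = 4.80e-18), beside -1.32 for Dnmt3b.

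Of 15 FGF and ERK signalling genes, 3 rose and 3 fell in 7E (median 0.05) and 4 rose and 1 fell in 5F (median 0.00498), and the counts in 7E are near the shares over all genes (20.7% higher and 19.4% lower). The receptor gene Fgfr2 changed by 0.60 in 7E (edgeR, adjusted p = 1.33e-08), turning to -0.50 on the spike-in scale, and the feedback inhibitor gene Spry4 by -0.40. On day 0, 8 of the 15 were higher in 7E and 3 were lower (median 0.14), beside 20.0% and 19.7% of all genes. Fgfr1, the receptor gene, was at 0.96 (edgeR, adjusted p = 8.29e-13). Of 16 regulators of the exit from naive pluripotency, 4 rose and 4 fell in 7E (median 0.02) and 5 rose and 2 fell in 5F (median 0.04). The counts in 7E are again near the shares over all genes, and in 5F those shares were 12.8% and 11.6%. Jarid2, a Polycomb cofactor gene, was higher after 4OHT in both (0.35 in 7E and 0.27 in 5F, with -0.75 on the spike-in scale in 7E), and the forkhead gene Foxp1 was lower in 7E (-0.46). On day 0, 5 of these regulators were higher and 4 lower in 7E (median -0.03), beside 20.0% and 19.7% of all genes.

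The 7 mRNAs spanned a wide range of stability. After 360 min of actinomycin D Fgf5, Otx2, Pou3f1 and Zic2 were down to 3.67% to 31.5% of their mock mean in single libraries, whereas Dnmt3a, Dnmt3b and Nes kept 27.8% to 86.5%. The ranges overlap because Fgf5 kept 29.3% to 31.5% in clone 7E on day 4. Counts were scaled here so that each time point carried the loss of total mRNA seen against the spike-ins. The fitted half-life comes from a line through the log of these values over all 4 times.

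Sequence elements in the 3′ untranslated regions are shown next because AU-rich and Pumilio elements are classical marks of unstable mRNAs. One transcript a gene was searched on its sense strand for ATTTA, for TATTTAT, which contains it, and for the Pumilio element TGTANATA. Over 20830 genes with a 3′ UTR, 62.6% held ATTTA, 26.0% held TATTTAT and 22.1% held TGTANATA. Pou3f1 held 4 matches to TATTTAT, all within 1599 nt, and Dnmt3a held 1 within 6696 nt. TGTANATA was found once each in Pou3f1, Zic2 and Dnmt3a. ATTTA was found 6 times in Pou3f1, 4 times in Fgf5, 3 times in Dnmt3a and 2 times in Otx2, and not in Zic2, Dnmt3b or Nes. The windows below are 30 nt of the mRNA strand (Gencode M21 transcripts, GRCm38), with the match in capitals.
Pou3f1, TATTTAT, chr4:124659633-124659662, plus strand: ttttacggttttTATTTATtcgtggagcct
Pou3f1, TATTTAT, chr4:124659711-124659740, plus strand: cgctgtatgctgTATTTATcggggccccag
Pou3f1, TATTTAT, chr4:124660414-124660443, plus strand: ctgacccatctcTATTTATtttctggatgt
Pou3f1, TATTTAT, chr4:124660593-124660622, plus strand: aagttccctttaTATTTATgttatagtaaa
Dnmt3a, TATTTAT, chr12:3913163-3913192, plus strand: gggttgcttctcTATTTATtgacagtaata
Pou3f1, TGTANATA, chr4:124660244-124660273, plus strand: ggtgggaaccaTGTAAATAtgtgagatatg
Zic2, TGTANATA, chr14:122479561-122479590, plus strand: ttttgacaaacTGTACATAgcggacgcctt
Dnmt3a, TGTANATA, chr12:3909641-3909670, plus strand: gatggatggagTGTAGATAtgtggcatata

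A match is a run of letters and not a measured site, and the matches were not tested against the half-lives.

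Among the ligand and the transcription factors, Zic2 had the shortest half-life fitted over all 4 times, although over the first 120 min it was the slowest of the 4 in clone 5F on day 0. In clone 5F on day 0 it was at 36.3% and 40.2% of the mock mean at 120 min, 12.8% to 15.8% at 240 min and 5.16%, 4.59% and 5.57% at 360 min. Its fitted half-life was 85.1 min (95% interval of the slope 81.8 to 88.6 min, 11 libraries), and 3.26% of 10987 genes with at least 100 mock counts had a steeper slope. The median half-life of those genes was 277 min. Pou3f1 had a half-life of 95.6 min (83.7 to 111 min), Fgf5 of 104 min (84.2 to 135 min) and Otx2 of 110 min (98.1 to 124 min) in the same cells, each with the 95% interval of the slope. The intervals of Pou3f1, Fgf5 and Otx2 overlap one another, and that of Zic2 overlaps those of Pou3f1 and Fgf5 but not that of Otx2.

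In clone 5F on day 0 Zic2 fell along a near-straight line on the log scale, but the other 3 fell fast at first and then more slowly. Pou3f1 was at 24.0% and 24.1% after 120 min, 12.0% to 13.9% after 240 min and 6.00% to 8.20% after 360 min in clone 5F on day 0. Fitted to the mock and 120 min libraries alone, its half-life was 58.6 min, against 135 min without the mocks. For Otx2 these values were 69.1 and 143 min, for Fgf5 66.7 and 156 min, and for Zic2 86.8 and 84.5 min. These early fits rest on 2 libraries at 120 min, which for Fgf5 were at 19.9% and 38.6%. Zic2 also bent in clone 7E, with 64.9 and 99.5 min on day 0 and 65.6 and 141 min on day 4. A single half-life does not describe such courses, and the mock was a 6 h DMSO treatment rather than a sample taken at the start.

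The mRNAs of both methyltransferases persisted. Dnmt3b in clone 5F on day 0 was at 64.3%, 65.8% and 61.4% of its mock mean at 360 min, with a half-life of 553 min (95% interval 488 to 638 min). Dnmt3a was at 86.5%, 82.6% and 81.1%. It was at 79.3% and 84.0% at 120 min and at 83.4% to 92.0% at 240 min, so that its fitted half-life of 1659 min (95% interval 981 to 5366 min) lies far beyond the course. It was 410 min over the first 120 min and 2551 min in the deposited half-lives, and single replicates gave 1098 to 3230 min. Of all genes, 99.1% had a steeper slope. Nes lay between, at 41.5%, 40.8% and 38.3% after 360 min, with a half-life of 277 min (238 to 333 min), at the median of all genes.

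**Figure D3:**
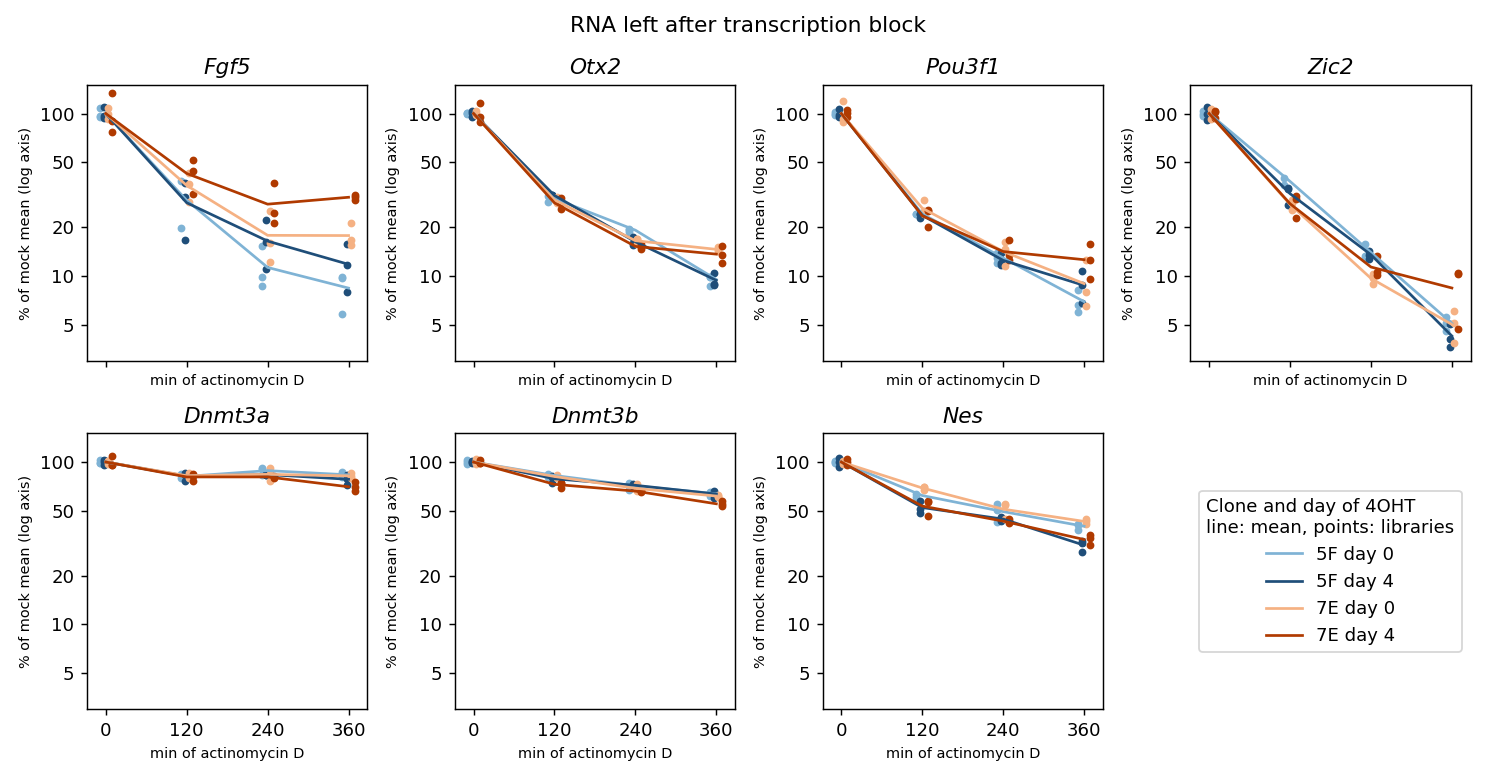
RNA left after actinomycin D as a percentage of the mock mean of the same clone and day (log axis) against minutes of treatment. Lines join means and points are libraries; Zic2 falls to 3.67% to 10.4% and Dnmt3a stays between 66.4% and 86.5% at 360 min, and Fgf5 is highest at 360 min in clone 7E on day 4 (29.3% to 31.5%).

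The day 4 treatment changed the decay of none of the 7 genes detectably in clone 5F. Of the 7, 0 passed edgeR, 0 had an unadjusted p under 0.05, and DESeq2 and limma-voom each called 0, beside 0.196% of 17901 genes called. For Zic2 the change in slope was -0.03 ± 0.03 log2 units per hour (95% interval -0.09 to 0.04) and for Otx2 -0.01 ± 0.04 (-0.10 to 0.08). Dnmt3b had the narrowest interval, -0.02 to 0.03. For Fgf5 the interval ran from -0.07 to 0.28, at 10 to 40 counts per library under actinomycin D.

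Nes rose in level on day 4 and leaned towards faster decay in the fit over all 4 times. The change in slope was -0.05 ± 0.03 in clone 5F (95% interval -0.11 to 0.00448) and -0.05 ± 0.03 in clone 7E (-0.11 to 0.00272). At 360 min it was at 38.3% to 41.5% of the mock mean on day 0 and 27.8% to 32.7% in the libraries labelled day 4 of clone 5F, and at 41.4% to 44.7% and 30.6% to 35.5% in clone 7E. The libraries did not overlap between the days at 120 or 360 min in either clone, but at 240 min they overlapped in both. Neither slope passed the test, with edgeR adjusted p of 1.00 in 5F and 0.649 in 7E. Fitted without the mocks, the half-life of Nes in clone 7E was 351.5 min on day 0 and 353 min on day 4, so the lean was absent there. In clone 5F these half-lives were 383.9 and 311.9 min. Over the first 120 min the half-life was 226.3 min on day 0 and 132.5 min on day 4 in 7E, and 175.2 and 128.8 min in 5F.

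In clone 7E 0 of the 7 passed on day 4 by edgeR, DESeq2 or limma-voom, and 0 had an unadjusted p under 0.05, beside 0.896% of 17417 genes called. Fgf5 went from 15.5%, 16.5% and 21.2% of its mock mean at 360 min on day 0 to 31.5%, 30.7% and 29.3% on day 4, a change in slope of 0.14 ± 0.08 log2 units per hour (edgeR, adjusted p = 0.687). Zic2 went from 6.06%, 5.16% and 3.88% to 4.69%, 10.2% and 10.4%, with a change in slope of 0.12 ± 0.07 (edgeR, adjusted p = 0.704) at 15 to 51 counts per library. For Otx2 (-0.02 ± 0.07), Pou3f1 (0.08 ± 0.08), Dnmt3a (-0.03 ± 0.02) and Dnmt3b (-0.02 ± 0.01) the changes in slope did not pass the test either. For the 2 transcription factor mRNAs that fell in level on day 4, the 95% interval of the change in slope was -0.02 to 0.25 for Zic2 and -0.16 to 0.12 for Otx2.

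The difference of the day 4 change in decay between the clones passed for 0 of the 7 genes, with 0 at an unadjusted p under 0.05 and 0 by DESeq2 or limma-voom, beside 0.00% of 18623 genes. Between the clones on day 0, 0 of the 7 passed by any of these tools, beside 0.0338% of 17766 genes. Fgf5 alone had an unadjusted p under 0.05. Its fitted slope was shallower in 7E by 0.19 ± 0.08 log2 units per hour (95% interval 0.03 to 0.36, edgeR adjusted p = 1.00) and did not pass. At 360 min 5.80% to 9.79% of Fgf5 was left in 5F and 15.5% to 21.2% in 7E. These values rest on 10 to 54 counts per library under actinomycin D. Otx2 was at 8.70%, 9.90% and 9.93% in 5F and 14.6%, 15.1% and 14.2% in 7E at 360 min, with a difference in slope of 0.09 ± 0.06 (95% interval -0.02 to 0.21). The lower levels of Dnmt3b and Pou3f1 in 7E came with differences in slope of -0.01 ± 0.01 and 0.06 ± 0.07.

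**Figure D4:**
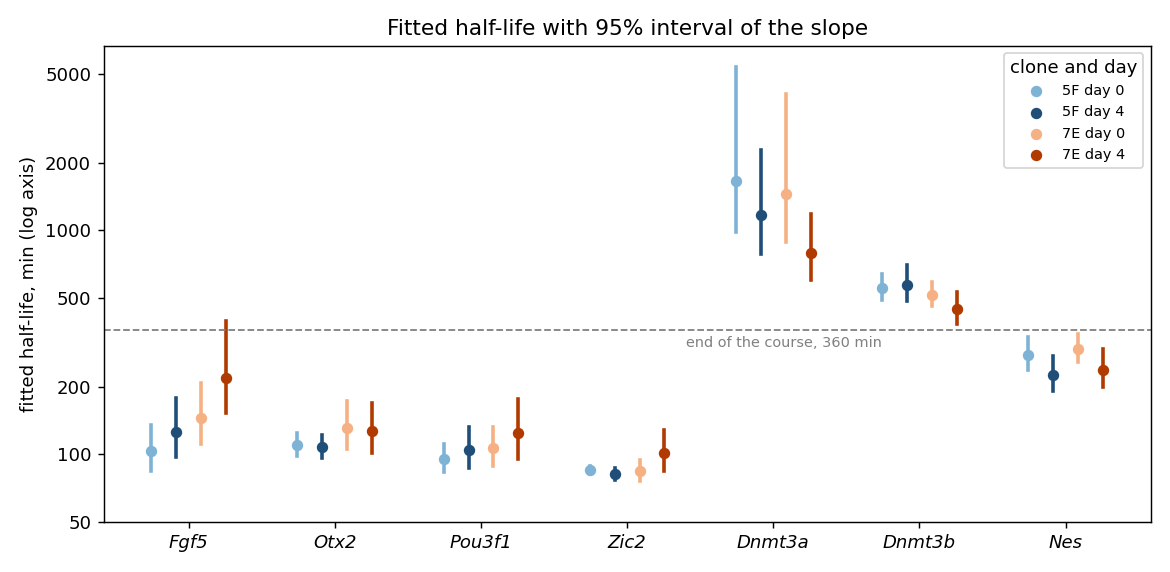
Fitted half-life in minutes (log axis) of each gene by clone and day, with the 95% interval of the slope; the dashed line marks the end of the course at 360 min. Fgf5, Otx2, Pou3f1 and Zic2 lie between 81.7 and 219 min, Nes between 225 and 294 min, and Dnmt3a and Dnmt3b above 360 min in all 4 groups.

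The second table gave, for 7240 mRNAs, the share of crosslinked reads (CRAC, in which a tagged protein is crosslinked to RNA and the bound RNA is sequenced) that fell to MTR4, SKIV2L and XRN1. These shares sum to 1 for each mRNA, and AVEN is given relative to their sum. The libraries of each protein were pooled by the authors, so the values have no replicate error. Nes, Dnmt3a, Dnmt3b and Pou3f1 were in the table.

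Nes had a low relative binding by XRN1. Its SKIV2L share was 0.406, higher than in 76.7% of mRNAs, its MTR4 share was 0.507, and its XRN1 share of 0.0874 was higher than in only 3.14%. After the authors' normalization to RNA-seq RPKM of the tagged lines, the XRN1 value of Nes was 0.174 (percentile 13). Pou3f1 was the reverse for SKIV2L, with a share of 0.0509 (percentile 1.40) beside 0.555 for MTR4 and 0.395 for XRN1. Pou3f1 was lowly expressed in the tagged lines, with a median RPKM of 1.19 against 5.27 for Nes and around 30 for the methyltransferases.

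For the methyltransferase mRNAs, Dnmt3a was close to the medians of all mRNAs, while the SKIV2L share of Dnmt3b was nearly that of Nes. The medians were 0.319 for MTR4, 0.267 for SKIV2L and 0.337 for XRN1. Dnmt3b had 0.356, 0.399 and 0.245 and Dnmt3a had 0.321, 0.296 and 0.383 for these factors in that order. For AVEN, Dnmt3a stood high at 0.618 (percentile 94.9), with Dnmt3b at 0.413, Nes at 0.323 and Pou3f1 at 0.189 (percentile 21.7). The authors' normalized values take account of differences in transcript level between the tagged lines, not of the expression level of a gene. Among these, the SKIV2L values of Dnmt3a, Dnmt3b and Nes stood at percentiles 85.3, 79.7 and 77.0. The MTR4 value of Nes stood at percentile 56.5 and the XRN1 value of Pou3f1 at percentile 33.6. Among the 4 genes, Nes was the one that rose in level on day 4 in both clones, and binding was not tested against the change in level.

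**Figure D5:**
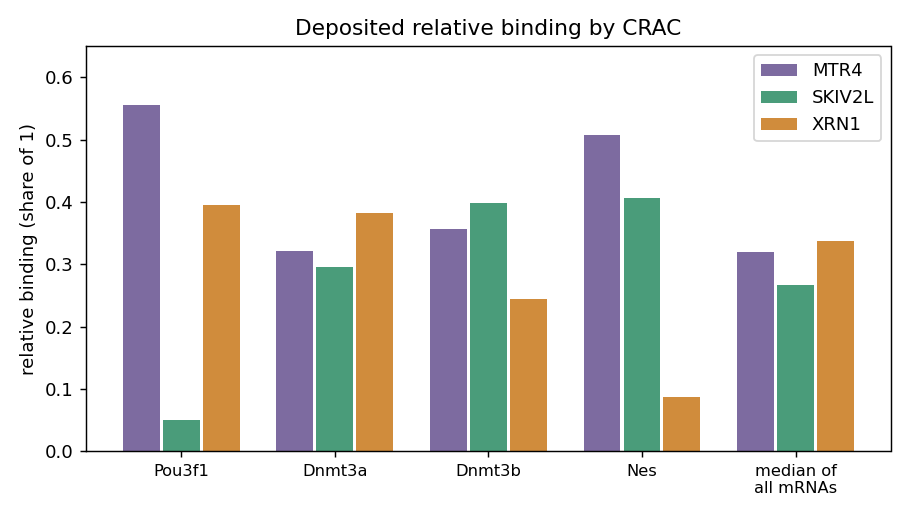
Relative binding (bars from 0, as a share of 1) by MTR4, SKIV2L and XRN1 for the 4 genes in the table and the median over 7240 mRNAs, 1 pooled value each. Nes has the lowest XRN1 share (0.0874) and Pou3f1 the lowest SKIV2L share (0.0509).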

How the data were processed

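Libraries were rRNA-depleted (TruSeq v2, single-end). The authors mapped reads with STAR to GRCm38 (mm10) with ERCC sequences added, kept unique alignments, and deposited raw counts per Gencode M16 gene. The strand setting of the counting is not given in the sources used here; antisense genes overlapping the 7 genes had at most 13 counts per mock library. The deposited binding ratio, the RPKM values and the score of that ratio over RPKM came from the authors' pooled CRAC and RNA-seq libraries. Their half-life score was used as an alternative, and columns of fold changes and adjusted p-values were not used.

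Counts were scaled by DESeq2 (1.42.0) size factors within each time point. For decay they were also scaled by 1 factor per time point from 34 ERCC sequences with a mean over 50 counts (0.649, 0.531 and 0.438 at 120, 240 and 360 min), applied so that later samples were lowered. Tests were edgeR 4.0.16 quasi-likelihood tests after filterByExpr, on mock levels and on the interaction with hours of actinomycin D, with Benjamini-Hochberg adjustment over all genes tested and a threshold of 0.05. Half-lives were least-squares fits of ln(normalized count + 1). Motif and exon length annotation was Gencode M21. Some of the fits, not all, were tested on simulated data. Alternatives were spike-in scaling, TMM, DESeq2, limma-voom 3.58.1, no filter, a replicate block, left-out replicates or mocks, and, added after seeing the data, leaving out the 12 libraries numbered in multiples of 4 or fitting half-lives to the first 120 min. The 7 genes and all lists were chosen with earlier results of these data known. Genes named from lists were those past the threshold with the largest changes and at least 100 mean counts. No per-sample column was left unused.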

Additional observations from a re-analysis of the deposited data

Results flagged for a closer look

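The day 4 change differed between the clones, by the interaction test of edgeR, for several of the genes reported. The difference, clone 7E minus clone 5F on the log2 scale of mock levels, was -1.64 for Zic2, 0.85 for Nes, -0.43 for Otx2, -0.43 for Dnmt3a and 0.38 for Dnmt3b. For the floxed gene Skiv2l it was -1.31. Among the other formative and primed genes it was -1.35 for Zic5, -0.68 for Tcf15, 0.88 for Cldn6 and 0.77 for Dnmt3l, and among the methylation genes -0.60 for Tet2, -0.53 for Zfp57 and -0.50 for Tet1. It was -0.67 for Foxp1, 0.33 for Zfp706 and 0.25 for Lamtor1 among the regulators of exit, and 0.50 for Fgfr2, -0.36 for Spred2 and -0.32 for Spry4 among the signalling genes. Scaled to each library's own spike-ins, the values of the 5 genes were lower, with a median over all genes of -1.03, and the part of that shift in the differences was not tested.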

How the results depend on the processing

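The count of the 7 genes past the threshold stayed within 1.5 times of that reported under TMM, DESeq2, limma-voom, no filter and spike-in scaling in all 8 comparisons. Leaving out 1 replicate gave 1 to 4 of the 7 on day 4 in clone 5F (3 reported) and 4 to 7 in clone 7E (7 reported), and 0 in every decay comparison. The replicate block gave 3 of the 7 in clone 5F and 7 in clone 7E and changed no other count of the 7. Same-numbered libraries correlated from -0.38 to 0.59 in their deviations, over 0.1 in 13 of 23 pairs. All of these 13 were pairs under actinomycin D, while same-numbered mocks ran from -0.38 to -0.03. The libraries numbered in multiples of 4 were replicate 1 at 120 min, replicate 2 at 240 min and replicate 3 at 360 min. An effect shared by replicate number under actinomycin D was not tested beyond the block. Counts over all genes moved more. For levels they were 1862 to 4399 (3998 reported, clone 5F), 4320 to 5949 (6551, clone 7E) and 753 to 1446 (2055, difference) with 1 replicate left out, and 14976 in 7E and 14373 for the difference with spike-in scaling. For decay with 1 replicate left out they were 2 to 4 (35, clone 5F), 26 to 51 (156, clone 7E) and 0 to 0 (6, clones on day 0). For decay in 5F they were 19 with spike-in scaling and 14 without mocks; in 7E 270 with DESeq2 and 237 without mocks; for the difference (0 reported) 1, 4 and 5 with spike-in scaling, with DESeq2 and without mocks, and 2 without the libraries numbered in multiples of 4; for the clones on day 0 2, 37, 3, 23 and 0 with spike-in scaling, DESeq2, no filter, no mocks and without those 12 libraries, whose mt-Rnr2 counts were 59939 to 187952 against 239739 to 871263 elsewhere.

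Spike-in scaling reversed the level change in 7E of Dnmt3b (-0.90), Pou3f1 (-0.81), Dnmt3l (-0.12), Cldn6 (-0.28), Jarid2 (-0.75), Zfp706 (-0.81) and Fgfr2 (-0.50), and the difference between clones of Dnmt3b (-0.64), Nes (-0.18), Pou3f1 (-0.73), Cldn6 (-0.14), Dnmt3l (-0.26), Zfp706 (-0.70), Lamtor1 (-0.78) and Fgfr2 (-0.53); by its construction it carries the shift of the median. The other reversals were of values that had not passed in the fit reported, although the difference of Fgf5 between clones passed with spike-in scaling (-1.07). For levels, Fgf5 between clones on day 0 was -0.086 with spike-in scaling and -0.012 to 0.14 with 1 replicate left out, Zic2 there -0.090 to 0.00051, Pou3f1 in 5F -0.073 to 0.026 and the difference of Fgf5 -0.27 to 0.12. For slopes under spike-in scaling, Dnmt3b was -0.0079 in 5F, 0.0020 in 7E and 0.0099 in the difference, Otx2 0.0043 in 7E and 0.027 in the difference, and Dnmt3a 0.013 in the difference. Without mocks Zic2 was 0.0095 in 5F and 0.099 on day 0, Dnmt3b 0.00044 in 7E, Otx2 0.0060 in the difference and Nes -0.014 on day 0; without the 12 libraries Zic2 was 0.0017 on day 0. With 1 replicate left out slopes ran from -0.0024 to 0.0080 for Dnmt3b and -0.026 to 0.00089 for Otx2 in 5F, -0.042 to 0.020 for Otx2 in 7E, -0.0034 to 0.0079 for Nes, -0.037 to 0.045 for Otx2, -0.032 to 0.099 for Pou3f1 and -0.045 to 0.093 for Fgf5 in the difference, and -0.018 to 0.0025 for Dnmt3a, -0.0065 to 0.11 for Pou3f1 and -0.041 to 0.017 for Zic2 on day 0. The cause was not tested.

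Half-lives moved by more than the SD over replicates in most fits limited to the first 120 min, an alternative chosen after seeing the data, or without mocks. Depth limits Fgf5 most, with 10 to 54 counts per library under actinomycin D.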

Other observations

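Over the 12 mock libraries, which are 4 groups of 3, the 3 genes most like each of the 7 were found by Pearson's r of log2(CPM + 1) among 10986 genes (10987 for Fgf5) with a mean of at least 100 counts. Those nearest to Zic2 were Zic5 (r = 0.989), Fgf18 (0.983) and Jam2 (0.979). Nes was nearest to Plet1 (0.993), Stc2 (0.99) and Ccn1 (0.989), Otx2 to Acot13 (0.99), Manba (0.975) and Nr5a2 (0.972), and Pou3f1 to Klhl13 (0.988), Fhl1 (0.986) and Mid1 (0.985). Dnmt3b was nearest to P4ha2, Ankrd33b and Nxf7 (0.996 to 0.997), Dnmt3a to Map7d3, Clstn3 and Pla2g1b (0.991 to 0.993), and Fgf5 to Washc1, Btd and Inpp5b (0.911 to 0.944). Since the groups are few, these values mostly describe the order of 4 group means.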
